A study of Mus musculus with 12 samples.

Results

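Benzbromarone (BBR) alone was compared with no drug in primary mouse hepatocytes, to describe what the drug changed across all genes when no oleic acid (OA) was added. The comparison was made between the 3 libraries titled BBR and the 3 titled Con, which are 6 of the 12 libraries of the series. The hepatocytes came from 6-week-old male C57BL/6J mice, with no engineered allele named, by collagenase perfusion and a Percoll step, and were cultured with fetal bovine serum. BBR was given at 15 µM over 16 h, the control group received no BBR, and neither group received OA. What vehicle the control cells received is not given in the sources used here. The remaining 6 libraries, in which the cells received 0.2 mM OA with or without BBR, were used only to see how the leading genes behaved in other samples. The labels number the replicates but do not tie them to separate mice or wells, so p-values measure the spread between these libraries, which may be technical. The labels also name the tissue liver, whereas the methods of the study describe cultured hepatocytes.

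BBR is a uricosuric drug, which lowers urate by blocking its reabsorption in the kidney, and its use has been limited by rare severe liver injury. Hepatocytes take up and oxidize fatty acids, store lipid in droplets, release glucose, dispose of ammonia, bile acids and drugs, and secrete most plasma proteins. The PPARs belong to the nuclear receptors and sense fatty acids as well as some drugs. PPAR alpha is best known for driving fatty acid oxidation in peroxisomes and mitochondria, and PPAR gamma for driving lipid storage. Hepatocytes in culture lose part of their liver-specific expression over time.

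The 6 libraries held between 15485508 and 23668379 counts, and the largest level that 0 counts could hide, taken as 3 counts, was 0.127 to 0.194 counts per 1e6 (CPM). That limit covers counting error only. No replicate pair was as alike as counting error alone would make it, and the first principal component, with 53.8% of the variance, separated the 3 control libraries from the 3 BBR libraries. All 12 hepatocyte markers were detected, and their summed level was 49806 to 50678 CPM in the controls and 48495 to 50867 CPM with BBR, with 2 called higher and 6 lower (0 higher without BBR replicate 2 or control replicate 2 and 1 higher without BBR replicate 1 or control replicate 1 or control replicate 3, 2 lower without BBR replicate 3 or control replicate 1 and 3 lower without BBR replicate 2 or control replicate 2). Of 15 Kupffer cell and macrophage markers 13 were tested, and their summed level was 255.8 to 270.1 CPM in the controls and 296.5 to 358.2 CPM with BBR, with Cd68 called higher (log2 change 0.71) and Cd5l called lower (log2 change -0.68, a call lost without control replicate 3). Without BBR replicate 1 there were 2 Kupffer cell markers called higher. The summed level of 14 endothelial markers was 96.1 to 106.6 CPM in the controls and 105.1 to 109.7 CPM with BBR, with 3 of 13 tested called higher and 0 lower (Pecam1 at log2 change 0.39, Kdr at log2 change 0.495 and Cdh5 at log2 change 0.299, of which Kdr was not called by limma on FPKM and Cdh5 was named after its value was seen). That of 14 stellate cell and fibroblast markers was 55.4 to 62.2 and 53.5 to 57.6 CPM. Of 16 lymphocyte, neutrophil and red cell markers 11 had no count in any of the 6 libraries. In bulk RNA, fewer cells of a type and less RNA per cell cannot be told apart.

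BBR changed many genes, most of them slightly. Of 12555 features tested, 3484 (27.7%) passed an adjusted p of 0.05 by edgeR's quasi-likelihood test, with 1661 (13.2%) higher and 1823 (14.5%) lower. The median absolute log2 fold change of the called features was 0.33. Among them 1724 had changed by less than 1.25-fold and 1484 by between 1.25-fold and 2-fold. At least a 2-fold change was found in 132 called higher (1.05% of those tested) and 144 called lower (1.15%), and at least a 4-fold change in 13 rises and 6 falls. The groups did not overlap in 5230 (41.7%) of the features tested and in 3374 of the called features. Protein-coding genes made up 12151 of those tested, with 1607 called higher and 1797 lower. A further 379 were assembled loci without an Ensembl identifier, of which 54 were called higher and 25 lower.

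How often a change was called, and how large it was, depended on abundance. Under 1 CPM, on the mean of the 6 libraries, 10.3% of 882 features were called, and the called features had a median absolute log2 fold change of 1.34. Between 10 and 100 CPM 31.1% of 6788 were called with a median of 0.29, and at 1000 CPM and over 34.9% of 106 were called with a median of 0.24. The median standard error of the log2 fold change fell from 0.37 in the lowest class to 0.055 in the highest, so that small changes could be called only in abundant genes. A 2-fold rise was called for 51 features under 1 CPM, 57 between 1 and 10 CPM, 20 between 10 and 100 CPM, 3 between 100 and 1000 CPM and 1 above 1000 CPM. The corresponding falls numbered 33, 78, 28, 5 and 0. CPM is not divided by transcript length, so these classes mix abundance and length.

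**Figure D1:**
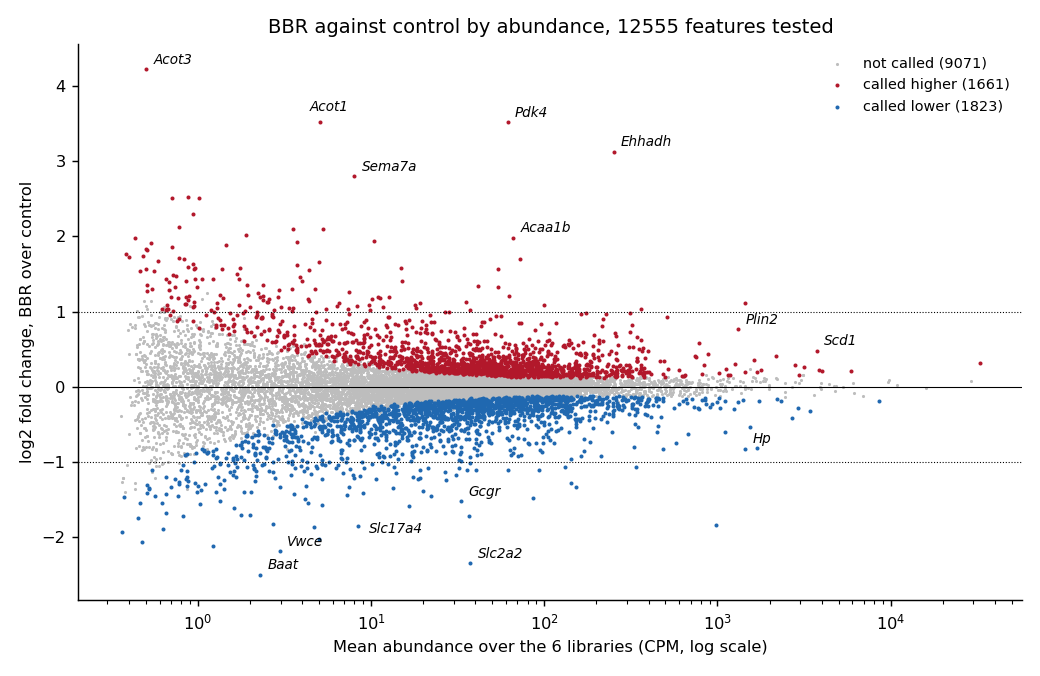
Each point is 1 of the 12555 features tested, with its mean abundance over the 3 control and 3 BBR libraries in CPM on a log axis and its log2 fold change of BBR over control on the vertical axis; red and blue points were called higher (1661) and lower (1823), grey points were not called, and dotted lines mark a 2-fold change. The spread of grey points narrows to the right, and the called changes above 100 CPM lie mostly within the dotted lines, with Ehhadh far outside them.

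The largest rises were in genes of varied function, among them enzymes that act on acyl-CoA. Named genes are the 12 largest rises and 12 largest falls that were called, reached a mean of 5 CPM in 1 group and did not overlap between groups; all 24 kept their call without any single library, and 23 of them are described. Values of each library are given in the order of replicates 1, 2 and 3.

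Acot1, a cytosolic thioesterase that splits acyl-CoA into free fatty acid and CoA, was at 0.9102, 0.958 and 0.593 CPM in the controls and 11.8, 8.92 and 7.33 CPM with BBR (log2 change 3.53 ± 0.23 SE, adjusted p = 3.06e-08). Pdk4, the kinase that shuts off pyruvate dehydrogenase and spares glucose, was at 9.66, 9.296 and 10.6 CPM in the controls and 118, 116 and 106 CPM with BBR (log2 change 3.52 ± 0.069 SE, adjusted p = 2.97e-15). Ehhadh, the bifunctional enzyme of peroxisomal beta-oxidation, was at 54.7, 50.6 and 49.98 CPM in the controls and 527, 436 and 393 CPM with BBR (log2 change 3.13 ± 0.087 SE, adjusted p = 4.17e-13). Every BBR library was far above every control library in these 3 genes, and BBR replicate 1 was the highest of its group each time. Acaa1b (GRCm38 chromosome 9, 119148023 to 119157093, minus strand), the thiolase that ends the peroxisomal cycle, was at 31.3, 24.2 and 25.2 CPM in the controls and 127, 93.9 and 96.2 CPM with BBR (log2 change 1.98 ± 0.11 SE, adjusted p = 4.80e-09). Hilpda, a lipid droplet protein that inhibits adipose triglyceride lipase and is also induced by hypoxia, was at 30.6, 37.5 and 34.4 CPM in the controls and 109, 121 and 104 CPM with BBR (log2 change 1.70 ± 0.071 SE, adjusted p = 1.86e-10). Slc25a34, an orphan carrier of the mitochondrial inner membrane, was at 1.92, 2.3 and 2.88 CPM in the controls and 6.198, 8.14 and 8.58 CPM with BBR (log2 change 1.67 ± 0.18 SE, adjusted p = 3.77e-06). Control and BBR libraries formed separate ranges in all 3, and the BBR values were tightest for Hilpda.

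The other 6 of the 12 rises were low in control cells. Sema7a (GRCm38 chromosome 9, 57940112 to 57962865, plus strand), a membrane-anchored semaphorin that signals through integrins, was at 1.67, 1.96 and 2.25 CPM in the controls and 9.04, 18.9 and 14.2 CPM with BBR (log2 change 2.804 ± 0.24 SE, adjusted p = 3.76e-07). Tenm4, a teneurin of the cell surface, was at 1.52, 2.59 and 1.87 CPM in the controls and 6.99, 8.202 and 10.6 CPM with BBR (log2 change 2.104 ± 0.20 SE, adjusted p = 1.17e-06). Serpinb9e, a member of the clustered intracellular serpins whose near-identical neighbors may share reads, was at 0.9102, 0.958 and 2.03 CPM in the controls and 4.66, 6.84 and 5.81 CPM with BBR (log2 change 2.098 ± 0.25 SE, adjusted p = 1.33e-05). The BBR libraries of Sema7a spread over a 2-fold range, all above control. Phospho1, a phosphatase of phosphocholine and phosphoethanolamine, was at 3.03, 4.46 and 5.34 CPM in the controls and 16.5, 16.5 and 16.8 CPM with BBR (log2 change 1.94 ± 0.14 SE, adjusted p = 6.09e-08). Rnf186, a ubiquitin ligase, was at 1.47, 1.73 and 1.48 CPM in the controls and 6.34, 5.598 and 5.81 CPM with BBR (log2 change 1.93 ± 0.17 SE, adjusted p = 6.99e-07), and Cldn23, a claudin of tight junctions, was at 1.47, 2.06 and 1.91 CPM in the controls and 5.08, 6.12 and 5.704 CPM with BBR (log2 change 1.62 ± 0.18 SE, adjusted p = 5.70e-06). Phospho1 was nearly equal in the 3 BBR libraries while its control libraries differed among themselves.

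The largest falls included genes of glucose handling. Slc2a2, the high-capacity glucose transporter GLUT2 of the hepatocyte, was at 59.01, 51.2 and 77.5 CPM in the controls and 10.5, 10.2 and 16.1 CPM with BBR (log2 change -2.35 ± 0.15 SE, adjusted p = 2.72e-08). Gcgr (GRCm38 chromosome 11, 120530699 to 120538986, plus strand), the glucagon receptor, was at 47.4, 43.9 and 55.8 CPM in the controls and 15.9, 16.01 and 19.2 CPM with BBR (log2 change -1.53 ± 0.093 SE, adjusted p = 1.68e-08). Control replicate 3 was the highest library for both genes, and every BBR library lay below every control library. Rgs16, an inhibitor of G protein signaling that responds to glucose and feeding in liver, was at 52.9, 44.9 and 71.3 CPM in the controls and 18.2, 16.01 and 17.1 CPM with BBR (log2 change -1.72 ± 0.13 SE, adjusted p = 1.12e-07), with the 3 BBR libraries close together.

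Transporters and a secreted binding protein followed. Slc16a12, a creatine transporter of the monocarboxylate family, was at 7.79, 6.66 and 7.59 CPM in the controls and 2.05, 2.28 and 1.74 CPM with BBR (log2 change -1.86 ± 0.16 SE, adjusted p = 4.08e-07). Slc17a4, an organic anion transporter able to move urate, was at 11.9, 12.03 and 15.4 CPM in the controls and 3.77, 2.99 and 4.02 CPM with BBR (log2 change -1.86 ± 0.14 SE, adjusted p = 1.33e-07). Igfbp4, a binding protein that restrains insulin-like growth factors, was at 124, 129 and 125 CPM in the controls and 50.1, 38.4 and 45.96 CPM with BBR (log2 change -1.48 ± 0.069 SE, adjusted p = 8.01e-10). Every BBR library was below every control library in all 3. Cpn2, the regulatory subunit of the plasma carboxypeptidase that trims complement peptides and kinins, was at 9.001, 7.76 and 7.59 CPM in the controls and 2.66, 1.37 and 1.74 CPM with BBR (log2 change -2.03 ± 0.19 SE, adjusted p = 8.40e-07). Akr1c14, a 3-alpha-hydroxysteroid dehydrogenase with close paralogs, was at 22.9, 23.2 and 28.4 CPM in the controls and 9.27, 6.51 and 8.69 CPM with BBR (log2 change -1.59 ± 0.12 SE, adjusted p = 9.11e-08). The membrane carbonic anhydrase Car14 (log2 change -1.55), the receptor-trafficking protein Rtp3 (log2 change -1.57) and the LIM homeobox factor Lhx6 (log2 change -1.496) were the other falls described, each without overlap between the groups.

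**Figure D2:**
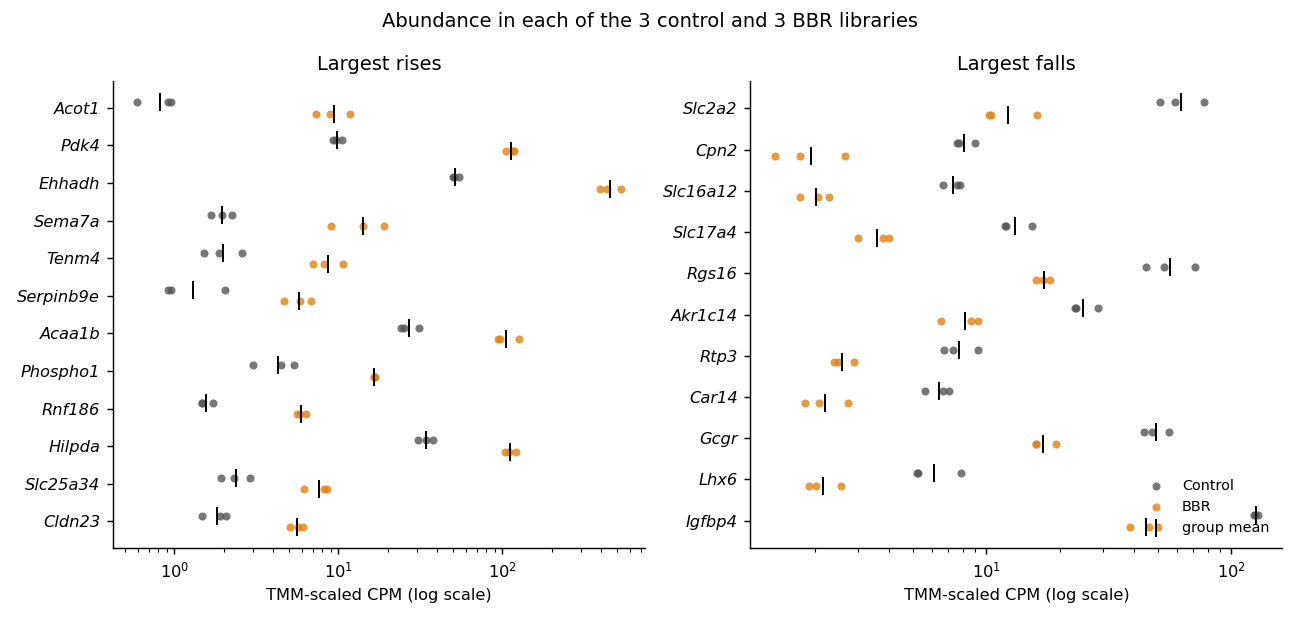
The left panel shows the 12 largest rises and the right panel 11 of the 12 largest falls, with TMM-scaled CPM on a log axis; grey points are the 3 control libraries, orange points the 3 BBR libraries and vertical ticks the group means. The 2 sets of points are apart for every gene, with group means of 0.821 CPM in the controls and 9.36 CPM with BBR for Acot1 and of 126 and 44.8 CPM for Igfbp4.

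The promoters of the 2 largest rises and the 2 largest falls are shown because these genes frame the response, with sequences from RefSeq (GRCm38.p6) running from 250 bases before to 50 bases after the start, 5′ to 3′ on the strand of the gene. Capitals mark the nuclear receptor half-site AGGTCA on either strand and, in Cpn2, also the STAT5 site TTCNNNGAA, which reads alike on both strands. Acot1 lies on the plus strand (chr12:84009252-84009551), Pdk4 on the minus strand (chr6:5496229-5496528), Slc2a2 on the plus strand (chr3:28697653-28697952) and Cpn2 on the minus strand (chr16:30267483-30267782).
Acot1: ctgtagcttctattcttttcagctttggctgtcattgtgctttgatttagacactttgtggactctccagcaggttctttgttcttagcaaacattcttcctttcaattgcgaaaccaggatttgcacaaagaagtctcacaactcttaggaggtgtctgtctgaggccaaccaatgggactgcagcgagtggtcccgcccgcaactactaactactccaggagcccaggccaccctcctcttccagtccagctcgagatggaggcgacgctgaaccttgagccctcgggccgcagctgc
Pdk4: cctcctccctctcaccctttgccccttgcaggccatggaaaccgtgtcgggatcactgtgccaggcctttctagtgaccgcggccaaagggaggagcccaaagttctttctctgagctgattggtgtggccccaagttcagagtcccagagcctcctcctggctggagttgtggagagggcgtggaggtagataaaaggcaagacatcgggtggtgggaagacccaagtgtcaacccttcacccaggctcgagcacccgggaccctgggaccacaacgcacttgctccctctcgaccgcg
Slc2a2: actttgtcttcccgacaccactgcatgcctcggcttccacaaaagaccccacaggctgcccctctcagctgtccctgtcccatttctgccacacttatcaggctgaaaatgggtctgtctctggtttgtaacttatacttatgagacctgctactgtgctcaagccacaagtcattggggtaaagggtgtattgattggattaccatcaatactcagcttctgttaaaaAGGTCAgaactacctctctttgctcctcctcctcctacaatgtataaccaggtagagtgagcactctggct
Cpn2: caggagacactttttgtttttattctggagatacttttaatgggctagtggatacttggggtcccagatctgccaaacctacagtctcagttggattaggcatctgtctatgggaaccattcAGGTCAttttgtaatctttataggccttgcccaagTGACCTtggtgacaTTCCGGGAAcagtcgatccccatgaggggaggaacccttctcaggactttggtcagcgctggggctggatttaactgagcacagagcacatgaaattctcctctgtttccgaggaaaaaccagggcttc

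Neither Acot1 nor Pdk4 held a capital, whereas Slc2a2 held 1 half-site and Cpn2 held 2 and a STAT5 site. The genes tested are the set from which the risers and fallers come. The half-site AGGTCA occurred in 18.1% of all 27025 genes with a promoter in the table, in 15.5% of 9534 genes tested, in 20.99% of 81 genes that rose at least 2-fold and in 19.6% of 97 that fell at least 2-fold. The STAT5 site TTCNNNGAA was in 9.55% of all genes, 8.496% of those tested, 6.17% of those 2-fold risers and 14.4% of those 2-fold fallers. Other motifs searched on both strands were the E-box CACGTG (8.09% of all genes, 11.9% of those tested, 7.41% of the risers, 10.3% of the fallers), the antioxidant response core TGACNNNGC (13.99%, 17.04%, 13.6% and 14.4%), the cAMP response element TGACGTCA (2.03%, 3.61%, 4.94% and 1.03%) and the amino acid response core TGATGNAA (4.51%, 2.78%, 6.17% and 4.12%). The hypoxia response core was in 46.7% of all genes, 67.3% of those tested, 54.3% of the risers and 54.6% of the fallers, and the TATA box TATAAA, on the strand of the gene, in 9.77%, 5.62%, 9.88% and 11.3%. The direct repeat with 1 spacer bound by PPARs and HNF4 was in 13 of the 27025 and 5 of the 9534 tested, and the sterol response element in 73 and 19 of them. Neither was in any promoter of the 2-fold risers or fallers. With shares of only 0.052% and 0.199% in the genes tested, sets of 81 and 97 promoters are too small for that absence to mean anything. These are matches of letters in a short window and say nothing about binding.

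The steepest called rise and the steepest called fall, of Acot3 and Baat, were in genes of low abundance. Low-abundance genes were taken as called genes without overlap between groups whose higher group mean was between 0.5 and 5 CPM. Their rises were led by Acot3, a peroxisomal thioesterase next to Acot1, with 1 count in each control library and 55 counts over the 3 BBR libraries. The other rises among them were smaller than those of Acot1, Pdk4, Ehhadh and Sema7a. The BBR-to-control ratio of Acot3 was 21.3 with a 95% exact counting interval from 6.93 to 106.6. Mboat2, a lysophospholipid acyltransferase, was at 0.202, 0.192 and 0.466 CPM in the controls and 1.21, 1.95 and 2.06 CPM with BBR (log2 change 2.52 ± 0.38 SE, adjusted p = 0.000126). Irx5, an Iroquois homeobox factor, was at 0.303, 0.288 and 0.0424 CPM in the controls and 0.839, 1.24 and 1.52 CPM with BBR (log2 change 2.51 ± 0.47 SE, adjusted p = 0.000789), and Cyp2s1, a P450 of extrahepatic epithelia, was at 0.202, 0.192 and 0.509 CPM in the controls and 0.932, 1.37 and 2.39 CPM with BBR (log2 change 2.298 ± 0.45 SE, adjusted p = 0.00105). The control libraries of these 3 genes were all under 1 CPM. The fifth rise, Gm21698 (log2 change 2.13), lost its call in DESeq2.

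Low-abundance falls included genes that shape bile acids. Baat, which joins bile acids to taurine and glycine, was at 3.94, 4.12 and 3.69 CPM in the controls and 0.792, 0.325 and 0.869 CPM with BBR (log2 change -2.504 ± 0.26 SE, adjusted p = 2.70e-06). Nr0b2, the small heterodimer partner (SHP) that restrains bile acid synthesis, was at 1.92, 2.16 and 1.91 CPM in the controls and 0.513, 0.586 and 0.272 CPM with BBR (log2 change -2.12 ± 0.31 SE, adjusted p = 7.56e-05). Vwce, a secreted von Willebrand factor domain protein, was at 5.21, 3.88 and 5.43 CPM in the controls and 0.606, 1.11 and 1.52 CPM with BBR (log2 change -2.19 ± 0.26 SE, adjusted p = 9.79e-06). Every BBR library lay below every control library in these 3, as the rule for naming them required. The adenylate kinase Ak1 (log2 change -2.07) and the protease Prss53 (log2 change -1.94) fell as well, from under 1 CPM. Beside these, 4057 features with some counts were too low to be tested. Of them 21 were seen in all 3 BBR and in no control library and 28 in all 3 control and in no BBR library, and the highest count of any untested feature was 206.

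Among the most abundant genes, with a mean of at least 500 CPM, rises were found in genes of mitophagy, lipid storage and glycolysis, and falls in plasma proteins and sugar metabolism. Bnip3, a mitochondrial receptor for mitophagy and a known hypoxia target, was at 309, 364 and 387 CPM in the controls and 632, 704 and 679 CPM with BBR (log2 change 0.93 ± 0.069 SE, adjusted p = 1.00e-07). Plin2, the main droplet coat protein of hepatocytes, was at 1006, 1018 and 909 CPM in the controls and 1724, 1702 and 1571 CPM with BBR (log2 change 0.77 ± 0.057 SE, adjusted p = 9.67e-08). Control replicate 1 was the lowest library for Bnip3. Groups without overlap were a condition for naming these abundant genes. Cldn4 (log2 change 0.58), a claudin, Scd1 (log2 change 0.48), the delta-9 desaturase, and Aldoa (log2 change 0.43), the aldolase of glycolysis, were the next rises. Hp, haptoglobin, was at 1846, 1956 and 1757 CPM in the controls and 1104, 961 and 1076 CPM with BBR (log2 change -0.82 ± 0.06 SE, adjusted p = 9.11e-08), and the fibrinogen chain gene Fgb was at 2123, 2255 and 2107 CPM in the controls and 1363, 1139 and 1188 CPM with BBR (log2 change -0.81 ± 0.063 SE, adjusted p = 1.48e-07). Fga (log2 change -0.74), a second fibrinogen chain, Pklr (log2 change -0.63), the liver pyruvate kinase, and Glud1 (log2 change -0.61), glutamate dehydrogenase, fell without overlap between groups.

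Gene lists were then used to describe functions, with 57 lists of 1546 members of which 1417 were tested. A list is described by its called members and its median log2 fold change, beside 13.2% higher, 14.5% lower and a median of -0.00085 over all features tested. Only 55 of the 276 called 2-fold changes (19.9%) belonged to any list, so most large changes fell outside these themes. Members are not independent of each other, and paralogs of the Acot, Cyp, Ugt and Gst families may share reads.

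**Figure D3:**
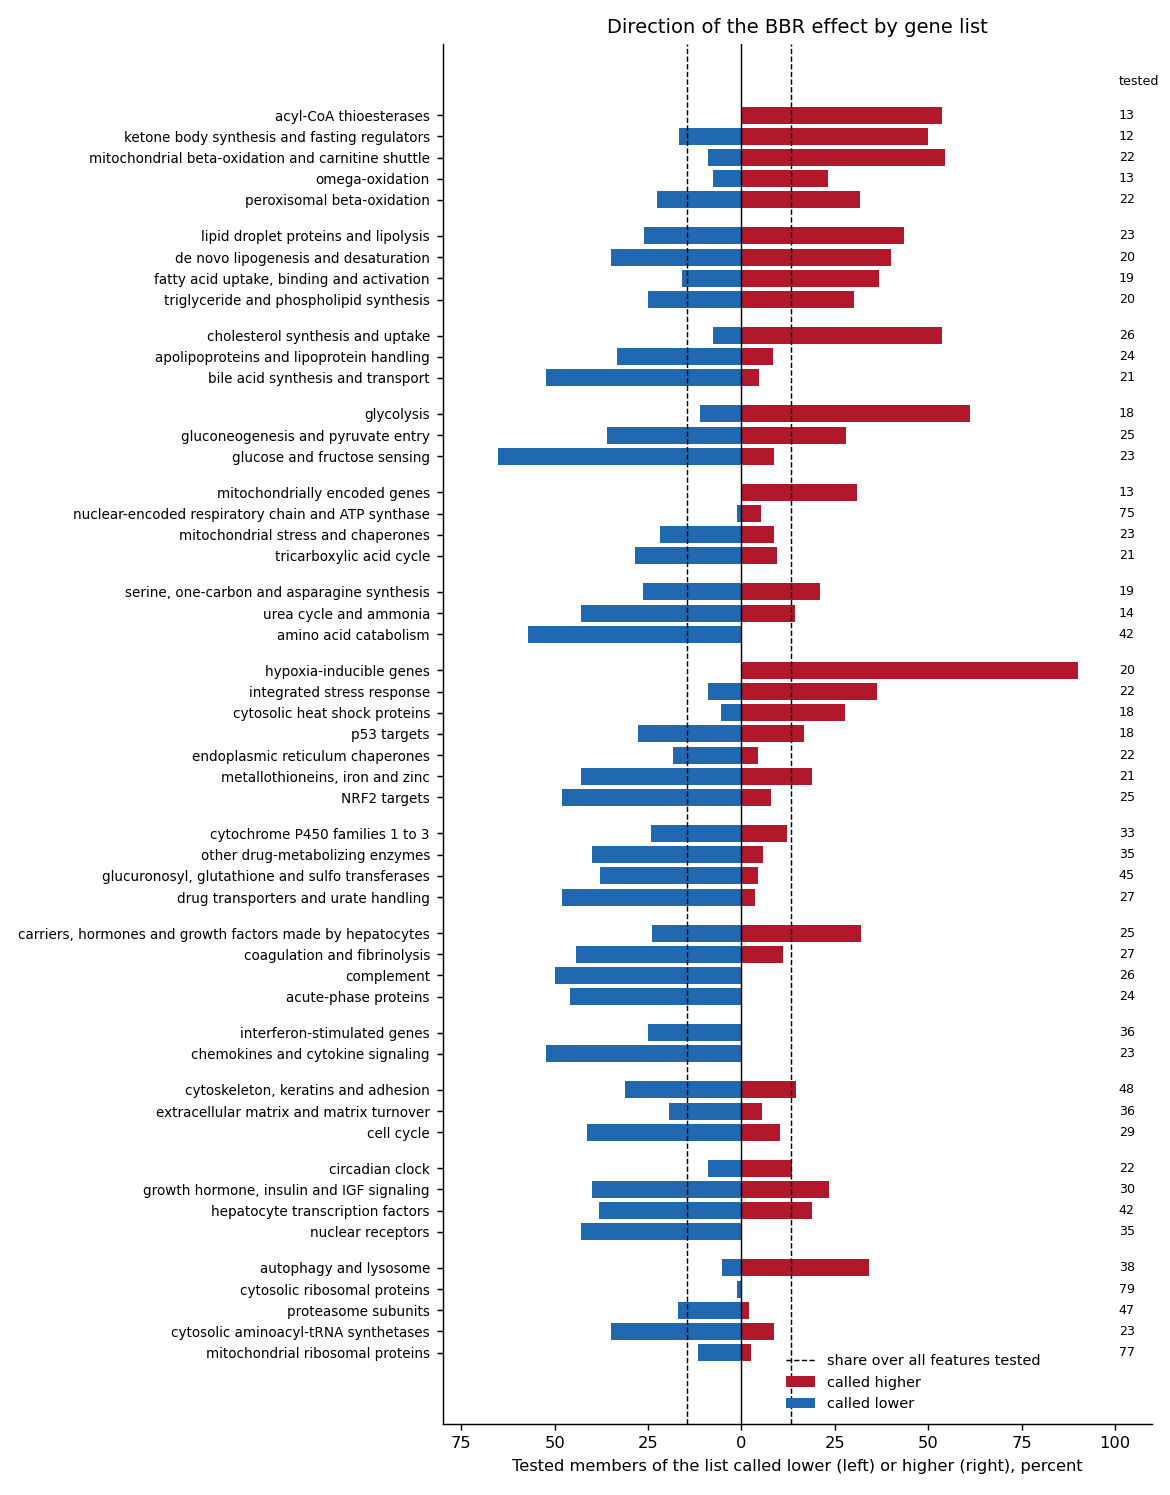
Horizontal bars give, for each of 51 gene lists, the percent of tested members called lower (blue, left) and higher (red, right), with the number tested at the right; dashed lines mark the shares over all features tested, 14.5% lower and 13.2% higher. The longest red bar is that of hypoxia-inducible genes with 18 of 20 tested members, and the longest blue bar that of glucose and fructose sensing with 15 of 23.

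More genes of fatty acid oxidation rose than fell. Of the mitochondrial beta-oxidation and carnitine shuttle genes 12 of 22 tested members were called higher and 2 lower, with a median log2 fold change of 0.16. Cpt1b, the muscle form of the carnitine palmitoyltransferase of the outer membrane, was at 1.57, 2.396 and 2.46 CPM in the controls and 4.05, 4.23 and 3.59 CPM with BBR (log2 change 0.87 ± 0.20 SE, adjusted p = 0.00344), and Slc22a5, the carnitine importer, was at 12.4, 13.6 and 11.6 CPM in the controls and 20.1, 16.7 and 19.8 CPM with BBR (log2 change 0.60 ± 0.092 SE, adjusted p = 0.000136). The short-chain enzyme Hadh (log2 change -0.32) and Acad10 (log2 change -0.36) fell. Of the acyl-CoA thioesterases 7 of 13 tested members were called higher and 0 lower, with a median log2 fold change of 0.37. The peroxisomal list was split, as 7 of 22 tested members were called higher and 5 lower, with a median log2 fold change of 0.036, with Ehhadh and Acaa1b as described, while Crot (log2 change -0.45), the peroxisomal carnitine octanoyltransferase, and the racemase Amacr (log2 change -0.56) fell. In ketone body synthesis and fasting regulators 6 of 12 tested members were called higher and 2 lower, with a median log2 fold change of 0.16. Creb3l3, a fasting-responsive transcription factor of the endoplasmic reticulum membrane, was at 49.1, 50.3 and 52.6 CPM in the controls and 92.3, 96.1 and 85.7 CPM with BBR (log2 change 0.85 ± 0.054 SE, adjusted p = 2.30e-08), and Bdh1, which interconverts the ketone bodies, was at 10.4, 8.58 and 9.62 CPM in the controls and 5.22, 4.04 and 4.94 CPM with BBR (log2 change -0.996 ± 0.13 SE, adjusted p = 2.92e-05). In omega-oxidation 3 of 13 tested members were called higher and 1 lower, with a median log2 fold change of 0.13 (1 higher without control replicate 3 and 1 higher in DESeq2, 0 lower without BBR replicate 2 or BBR replicate 3 or control replicate 1 or control replicate 2 or control replicate 3 and 0 lower in DESeq2), with the Cyp4a10 hydroxylase at log2 change 1.03.

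Lipid storage genes moved in both directions. Among fatty acid uptake and activation genes 7 of 19 tested members were called higher and 3 lower, with a median log2 fold change of 0.11. Cd36, a fatty acid receptor, was at 4.602, 4.12 and 3.73 CPM in the controls and 10.8, 8.85 and 7.17 CPM with BBR (log2 change 1.12 ± 0.16 SE, adjusted p = 5.24e-05), and Acsl3, an acyl-CoA synthetase of droplets, was at 31, 30.4 and 31.1 CPM in the controls and 50.6, 61 and 56.6 CPM with BBR (log2 change 0.86 ± 0.067 SE, adjusted p = 1.48e-07). The medium-chain synthetases Acsm5 (log2 change -1.19) and Acsm3 (log2 change -0.904) fell. In the droplet and lipolysis list 10 of 23 tested members were called higher and 6 lower, with a median log2 fold change of 0.13 (3 lower without control replicate 3). Pnpla3, the droplet lipase homolog, was at 1.31, 1.102 and 1.102 CPM in the controls and 2.98, 2.73 and 2.499 CPM with BBR (log2 change 1.23 ± 0.22 SE, adjusted p = 0.000577), whereas Mgll (log2 change -0.79), the monoglyceride lipase, and Bscl2 (log2 change -0.71), the seipin gene, fell. Triglyceride and phospholipid synthesis showed a like division, as 6 of 20 tested members were called higher and 5 lower, with a median log2 fold change of -0.031 (3 lower without control replicate 2), with the acyltransferase Gpat3 (log2 change 0.79) and the phosphatidate phosphatase Lpin2 (log2 change 0.67) higher and Gpd1 (log2 change -0.75) lower. In de novo lipogenesis 8 of 20 tested members were called higher and 7 lower, with a median log2 fold change of 0.12. Acaca, which makes malonyl-CoA for fatty acid synthesis, was at 213, 179 and 264 CPM in the controls and 86.9, 74.1 and 99.3 CPM with BBR (log2 change -1.33 ± 0.11 SE, adjusted p = 3.61e-07), while the desaturase Scd2 was at 12.4, 12.7 and 11.1 CPM in the controls and 25.7, 24.1 and 28.7 CPM with BBR (log2 change 1.12 ± 0.086 SE, adjusted p = 1.33e-07). Acaca and Scd2 were apart in every library, in opposite directions.

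More cholesterol genes rose than fell, and more bile acid genes fell than rose. In cholesterol synthesis and uptake 14 of 26 tested members were called higher and 2 lower, with a median log2 fold change of 0.18 (1 lower without BBR replicate 3 or control replicate 1). Insig1, which retains the SREBP escort protein when sterols are plentiful, was at 102, 115 and 112 CPM in the controls and 198, 239 and 211 CPM with BBR (log2 change 0.97 ± 0.064 SE, adjusted p = 3.08e-08), without overlap between the groups. In lipoprotein handling 2 of 24 tested members were called higher and 8 lower, with a median log2 fold change of -0.0061 (5 lower without BBR replicate 3). Vldlr, the very-low-density lipoprotein receptor, was at 33.9, 40.3 and 38.5 CPM in the controls and 74.6, 88.1 and 97.6 CPM with BBR (log2 change 1.204 ± 0.084 SE, adjusted p = 5.21e-08). Angptl4 (log2 change 0.62) rose and Angptl8 (log2 change -0.87) fell, both of them inhibitors of lipoprotein lipase. Apon (log2 change -1.17), an apolipoprotein, fell too. In bile acid synthesis and transport 1 of 21 tested members were called higher and 11 lower, with a median log2 fold change of -0.35 (0 higher without BBR replicate 2 or control replicate 2). Baat and Nr0b2 led these falls, and Hsd3b7 (log2 change 0.16), the only member called higher, lost its call without control replicate 2 or BBR replicate 2.

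Carbohydrate lists moved in different directions, with most of the sensing list called lower and most of the glycolysis list called higher. In glucose and fructose sensing 2 of 23 tested members were called higher and 15 lower, with a median log2 fold change of -0.51. Beside Slc2a2, these falls included Pklr at 773, 809 and 868 CPM in the controls and 486, 495 and 601 CPM with BBR, and 7 of the members fell at least 2-fold. Pklr is itself a glycolytic enzyme but was placed in this list, so the lists do not divide these genes cleanly by role. The glucose transporter Slc2a1 (GLUT1), low in normal liver and inducible by hypoxia, was at 180.0, 210.2 and 189.9 CPM in the controls and 297, 326 and 331 CPM with BBR (log2 change 0.72 ± 0.059 SE, adjusted p = 2.58e-07), and Ppp1r3b, a glycogen-targeting subunit of protein phosphatase 1, at log2 change 0.33. In glycolysis 11 of 18 tested members were called higher and 2 lower, with a median log2 fold change of 0.27 (1 lower without BBR replicate 1 or BBR replicate 2 or control replicate 1 or control replicate 2 or control replicate 3 and 1 lower in DESeq2). The falls were Gpi1 (log2 change -0.23) and Pfkm (log2 change -0.23), and the call of Pfkm was lost without any single library other than BBR replicate 3. Slc16a3, the lactate exporter MCT4, was at 149, 153 and 155 CPM in the controls and 268, 288 and 299 CPM with BBR (log2 change 0.91 ± 0.049 SE, adjusted p = 4.80e-09), and Hk1, a hexokinase of non-hepatic tissues, was at 64.8, 71.9 and 69.2 CPM in the controls and 97.5, 137 and 133 CPM with BBR (log2 change 0.83 ± 0.093 SE, adjusted p = 5.73e-06). The BBR libraries of Slc16a3 and Hk1 were all above the control libraries. In gluconeogenesis and pyruvate entry 7 of 25 tested members were called higher and 9 lower, with a median log2 fold change of -0.057. Fbp2, the muscle form of fructose bisphosphatase, was at 1.92, 2.25 and 2.501 CPM in the controls and 6.105, 7.23 and 6.41 CPM with BBR (log2 change 1.55 ± 0.16 SE, adjusted p = 3.02e-06), while G6pc, the glucose-6-phosphatase, was at 11.2, 9.73 and 19.9 CPM in the controls and 7.64, 5.27 and 7.01 CPM with BBR (log2 change -1.03 ± 0.22 SE, adjusted p = 0.00199).

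Hypoxia-inducible genes showed the most uniform change of the lists. Of 21 members 20 were tested, 18 were called higher and 0 lower, and the median log2 fold change was 0.603. The count of rises was 17 to 19 when any 1 library was left out and 18 in DESeq2. Ndrg1, a stress-response gene, was at 209, 267 and 240.2 CPM in the controls and 439.8, 512 and 512 CPM with BBR (log2 change 1.03 ± 0.076 SE, adjusted p = 9.61e-08). Hilpda, Bnip3 and Slc2a1, described above, belong to this list, and so does Ddit4, an inhibitor of mTORC1, at 58.2, 60.5 and 62.8 CPM in the controls and 86.5, 94.9 and 91.05 CPM with BBR (log2 change 0.58 ± 0.052 SE, adjusted p = 6.06e-07). The summed level of the list was 2098, 2326 and 2324 CPM in the controls and 3414, 3788 and 3754 CPM with BBR. Every BBR library exceeded every control library in that sum. Pfkfb4 (log2 change 0.21) and Bhlhe40 (log2 change 0.12), the 2 tested members not called, were fitted on the same side; both were named after their values were seen.

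**Figure D4:**
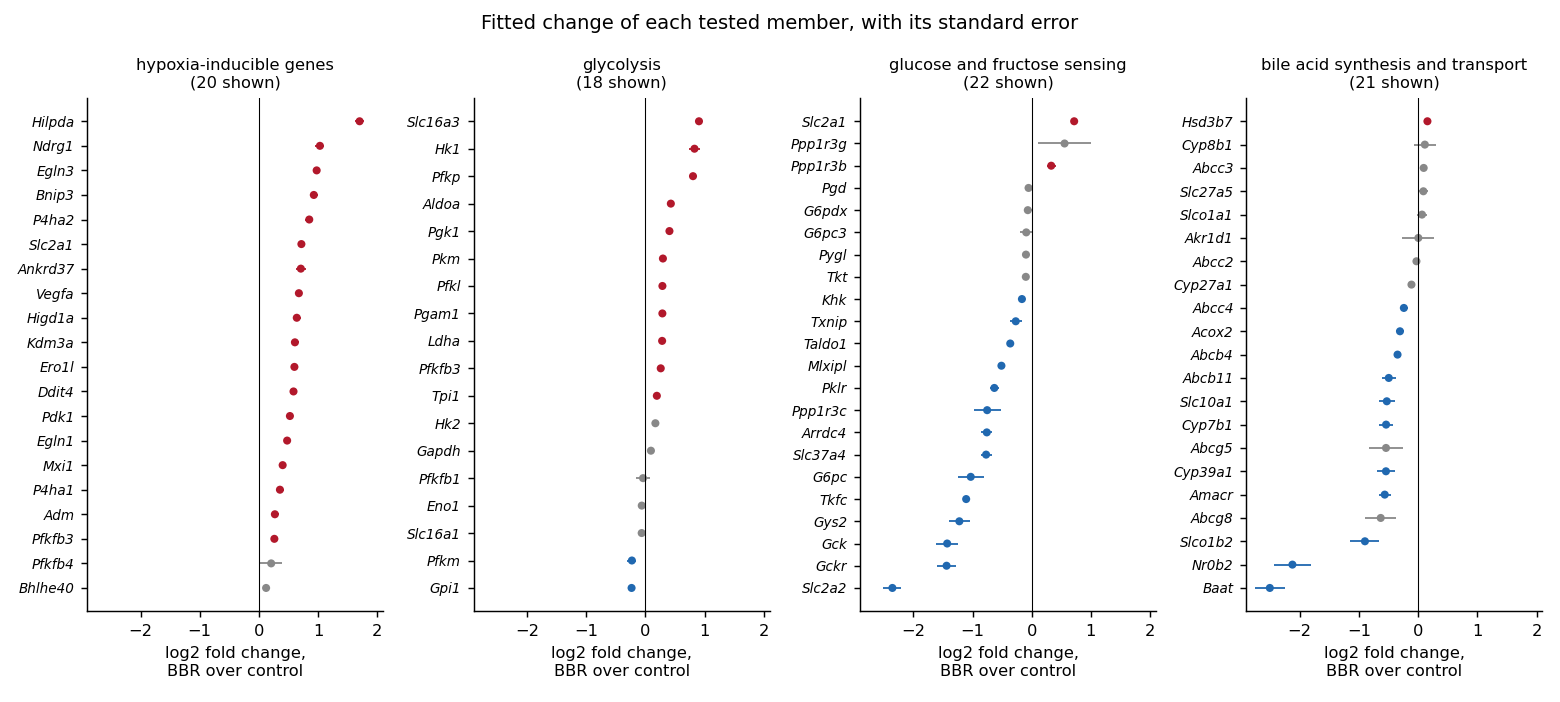
Each point is a tested member of the list above its panel, placed at its log2 fold change of BBR over control with 1 standard error on each side; red was called higher, blue lower and grey not called. All 20 hypoxia-inducible genes lie to the right of 0, 11 of 18 glycolysis genes are red, 14 of the 22 glucose and fructose sensing genes shown are blue, and Baat and Nr0b2 lie farthest left among the bile acid genes.

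More tricarboxylic acid cycle genes fell than rose, and few nuclear-encoded respiratory chain genes were called. In the tricarboxylic acid cycle 2 of 21 tested members were called higher and 6 lower, with a median log2 fold change of -0.084 (1 higher without BBR replicate 2 or control replicate 1), with Idh2 (log2 change -0.48), the mitochondrial isocitrate dehydrogenase, showing the largest fall. Of 75 nuclear-encoded respiratory chain genes 4 were called higher and 1 lower (11 higher without control replicate 3, 0 lower without BBR replicate 2 or BBR replicate 3 or control replicate 1 and 2 lower without control replicate 2), under the share over all features. Ndufa4l2, a hypoxia-inducible relative of a complex IV subunit, was at 71.1, 88.1 and 85.6 CPM in the controls and 109, 128 and 123 CPM with BBR (log2 change 0.55 ± 0.072 SE, adjusted p = 2.85e-05). Of 13 genes encoded by mitochondrial DNA 4 were called higher and 0 lower (2 higher without control replicate 2), which is 30.8% higher beside 13.2% over all features. Their summed level was 56340, 54568 and 60947 CPM in the controls and 69130, 63954 and 66955 CPM with BBR. The largest of these rises was mt-Co1, at 27577, 28331 and 31322 CPM in the controls and 35999, 35966 and 36404 CPM with BBR (log2 change 0.31 ± 0.065 SE, adjusted p = 0.00186), a call that limma on FPKM did not make. In mitochondrial stress and chaperones 2 of 23 tested members were called higher and 5 lower, with a median log2 fold change of -0.029 (3 lower without BBR replicate 1 or BBR replicate 3 and 3 lower in DESeq2), with Bnip3l (log2 change 0.44) beside Bnip3 among the mitophagy receptors and Mfn2 (log2 change -0.41), a fusion protein, showing the largest called fall.

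The integrated stress response list, whose genes are driven by ATF4 and CHOP, leaned upward, as 8 of 22 tested members were called higher and 2 lower, with a median log2 fold change of 0.14. Its largest rises were Vldlr and Ddit4, while Gdf15, a secreted stress signal, was at 53.7, 50.1 and 52.8 CPM in the controls and 47.3, 43.3 and 43.7 CPM with BBR (log2 change -0.22 ± 0.056 SE, adjusted p = 0.00852), lower with BBR. Endoplasmic reticulum chaperones did not follow, as 1 of 22 tested members were called higher and 4 lower, with a median log2 fold change of -0.079 (2 lower without BBR replicate 3). Among cytosolic heat shock proteins 5 of 18 tested members were called higher and 1 lower, with a median log2 fold change of 0.066 (3 higher without BBR replicate 2, 2 lower without control replicate 2), led by Hspa1a (log2 change 0.68). NRF2 targets, which guard against oxidants, were lower more often than higher, as 2 of 25 tested members were called higher and 12 lower, with a median log2 fold change of -0.13. Gclc, the rate-limiting enzyme of glutathione synthesis, was at 425, 482 and 468 CPM in the controls and 246, 189 and 218 CPM with BBR (log2 change -1.07 ± 0.075 SE, adjusted p = 5.13e-08). Hmox1, the heme oxygenase, went the other way, at 176, 238 and 214 CPM in the controls and 356, 443 and 439 CPM with BBR (log2 change 0.98 ± 0.091 SE, adjusted p = 9.92e-07). Gclc and Hmox1 did not overlap between the groups. The metallothioneins Mt1, at 203, 249.8 and 239.9 CPM in the controls and 356, 446 and 423 CPM with BBR (log2 change 0.82 ± 0.079 SE, adjusted p = 1.35e-06), and Mt2 (log2 change 0.69) rose in a list where 4 of 21 tested members were called higher and 9 lower, with a median log2 fold change of -0.11 (2 higher without BBR replicate 2). Among p53 targets 3 of 18 tested members were called higher and 5 lower, with a median log2 fold change of -0.053, with the death receptor gene Fas (log2 change -1.03) and the kinase Plk2 (log2 change -0.74) lowest.

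Amino acid catabolism was the list with the largest number of falls. By share of tested members it had 57.1% lower, under the 65.2% of glucose and fructose sensing. Of the amino acid catabolism list, 0 of 42 tested members were called higher and 24 lower, with a median log2 fold change of -0.296, and 19 to 26 falls were counted when any 1 library was left out. Acmsd, which diverts tryptophan away from NAD synthesis, was at 14.9, 16.96 and 12.9 CPM in the controls and 6.38, 5.86 and 6.68 CPM with BBR (log2 change -1.23 ± 0.12 SE, adjusted p = 1.08e-06), and Kynu, the kynureninase, was at 23.1, 26.1 and 24.3 CPM in the controls and 10.8, 8.85 and 12.1 CPM with BBR (log2 change -1.202 ± 0.096 SE, adjusted p = 1.89e-07). Control and BBR libraries were apart in both. In the urea cycle and ammonia list 2 of 14 tested members were called higher and 6 lower, with a median log2 fold change of -0.17. Cps1, which commits ammonia to urea, was at 19.6, 16.6 and 17.8 CPM in the controls and 12.3, 8.79 and 8.31 CPM with BBR (log2 change -0.86 ± 0.12 SE, adjusted p = 6.60e-05), and Glud1 fell as given above. Arginase, Arg1 (log2 change 0.39), and the glutaminase Gls2 (log2 change 0.37) were the 2 rises. In serine, one-carbon and asparagine synthesis 4 of 19 tested members were called higher and 5 lower, with a median log2 fold change of 0.011, with Shmt1, the cytosolic serine hydroxymethyltransferase, at 43.1, 39.6 and 45.5 CPM in the controls and 20.5, 17.4 and 18.8 CPM with BBR (log2 change -1.17 ± 0.074 SE, adjusted p = 2.28e-08). Cystine importer Slc7a11 (log2 change 0.38) rose.

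Drug-handling genes fell more often than they rose. Conjugating enzymes of the glucuronosyl, glutathione and sulfo transferase families numbered 67, of which 45 were tested, and 2 of 45 tested members were called higher and 17 lower, with a median log2 fold change of -0.20 (0 higher without BBR replicate 2 or control replicate 1 and 1 higher without BBR replicate 1 or control replicate 2 and 0 higher in DESeq2). Ugt1a7c, a glucuronosyltransferase that shares exons with its neighbors, was at 1.87, 1.68 and 2.37 CPM in the controls and 0.746, 0.976 and 0.3803 CPM with BBR (log2 change -1.52 ± 0.31 SE, adjusted p = 0.00167). Both of the 2 rises, Sult2a8 (log2 change 0.32) and Ugt2a3 (log2 change 0.21), lost their calls in DESeq2, in limma on FPKM and with all 12 libraries in 1 fit. Sult2a8 also lost its call whichever library was left out. Ugt2a3 also lost its call without control replicate 1, BBR replicate 1 or BBR replicate 2. Of 35 other drug-metabolizing enzymes 14 fell and 2 rose (1 higher without BBR replicate 2 or control replicate 2 or control replicate 3 and 1 higher in DESeq2), led by the aldehyde oxidase Aox3, at 14.7, 15.7 and 15.4 CPM in the controls and 8.11, 8.01 and 8.09 CPM with BBR (log2 change -0.92 ± 0.089 SE, adjusted p = 1.46e-06), and by Aldh1a1 (log2 change -0.85), which makes retinoic acid. In the list of P450 families 1 to 3, 4 of 33 tested members were called higher and 8 lower, with a median log2 fold change of -0.03 (3 lower without BBR replicate 3 and 4 lower without control replicate 1 and 5 lower without control replicate 2 and 5 lower in DESeq2). Cyp3a11, the main inducible drug P450 of mouse liver, was at 167, 148 and 167 CPM in the controls and 207, 217 and 187 CPM with BBR (log2 change 0.34 ± 0.059 SE, adjusted p = 0.000399).

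Urate handling is of interest for a uricosuric drug. In the list of drug transporters and urate handling 1 of 27 tested members were called higher and 13 lower, with a median log2 fold change of -0.22, 4 of them at least 2-fold. Slc17a1, a phosphate transporter that also exports urate, was at 2.43, 2.204 and 3.39 CPM in the controls and 1.03, 0.846 and 1.14 CPM with BBR (log2 change -1.41 ± 0.26 SE, adjusted p = 0.000612), beside Slc17a4 above. Slco2a1, the prostaglandin transporter, was the only rise (log2 change 0.43). The other 2-fold falls, Slc17a3 (log2 change -1.405) and Slc17a2 (log2 change -1.08), were named after their values were seen. All 4 belong to 1 family with related sequences, so they are not independent observations.

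Genes of the acute phase, complement and coagulation fell more often than they rose. Of the acute-phase proteins list, 0 of 24 tested members were called higher and 11 lower, with a median log2 fold change of -0.19, with Hp, Fgb and Fga as described. Of the complement list, 0 of 26 tested members were called higher and 13 lower, with a median log2 fold change of -0.13 (7 lower without control replicate 2), with Masp1, the lectin pathway protease, at 24.02, 24.3 and 27 CPM in the controls and 14.9, 12.8 and 13.5 CPM with BBR (log2 change -0.86 ± 0.081 SE, adjusted p = 1.07e-06). In coagulation and fibrinolysis 3 of 27 tested members were called higher and 12 lower, with a median log2 fold change of -0.10. F7, coagulation factor VII, was at 37.02, 33.2 and 43.7 CPM in the controls and 15.4, 15.1 and 17.9 CPM with BBR (log2 change -1.24 ± 0.097 SE, adjusted p = 1.51e-07), and Serpinf2, the inhibitor of plasmin, was at 223, 222 and 199 CPM in the controls and 122, 107 and 109.9 CPM with BBR (log2 change -0.93 ± 0.058 SE, adjusted p = 2.11e-08). Among carriers, hormones and growth factors 8 of 25 tested members were called higher and 6 lower, with a median log2 fold change of -0.033 (5 higher without BBR replicate 2 or control replicate 1 or control replicate 2 or control replicate 3, 3 lower without BBR replicate 2). Serpina7, the thyroxine carrier, was at 191, 196 and 217 CPM in the controls and 90.5, 69.4 and 88.5 CPM with BBR (log2 change -1.28 ± 0.077 SE, adjusted p = 1.68e-08), and Inhbb, an activin subunit, rose (log2 change 0.52).

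No tested member of the chemokine or interferon lists was called higher. Of the chemokines and cytokine signaling list, 0 of 23 tested members were called higher and 12 lower, with a median log2 fold change of -0.35. Cxcl1, a neutrophil attractant, was at 30.6, 27.6 and 28.7 CPM in the controls and 13.98, 8.14 and 10.3 CPM with BBR (log2 change -1.39 ± 0.12 SE, adjusted p = 5.49e-07), and Cxcl2 was at 2.98, 2.64 and 2.54 CPM in the controls and 1.17, 0.716 and 0.543 CPM with BBR (log2 change -1.71 ± 0.27 SE, adjusted p = 0.000187). The summed Kupffer cell marker level was higher in every BBR library than in every control library, as given above, and its part in these values was not tested. Among interferon-stimulated genes 0 of 36 tested members were called higher and 9 lower, with a median log2 fold change of -0.11 (3 lower without BBR replicate 3 or control replicate 1 and 4 lower without control replicate 2 and 5 lower in DESeq2). In the proteasome list 1 of 47 tested members were called higher and 8 lower, with a median log2 fold change of -0.0013 (0 higher without control replicate 2 and 2 higher without control replicate 3, 5 lower without BBR replicate 3 or control replicate 1 or control replicate 2), with the immunoproteasome subunit Psmb10 lowest (log2 change -0.69).

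Matrix, cytoskeletal and cell cycle genes were called lower more often than higher, though not to a like degree. The shares called lower were 19.4%, 31.2% and 41.4% beside 14.5% over all features, so the matrix list was near that share. The shares called higher were 5.56%, 14.6% and 10.3% beside 13.2%. In the matrix list 2 of 36 tested members were called higher and 7 lower, with a median log2 fold change of -0.073, with Spp1, osteopontin, at 612, 683 and 556 CPM in the controls and 367, 342 and 332 CPM with BBR (log2 change -0.83 ± 0.065 SE, adjusted p = 1.53e-07). Of the cytoskeletal and adhesion genes 7 of 48 tested members were called higher and 15 lower, with a median log2 fold change of -0.048. Myl9, a smooth muscle myosin light chain, was at 4.703, 6.33 and 6.87 CPM in the controls and 1.96, 2.604 and 2.72 CPM with BBR (log2 change -1.32 ± 0.19 SE, adjusted p = 6.49e-05), and Cdh17 fell (log2 change -1.11), whereas the biliary and progenitor genes Epcam (log2 change 0.92), Krt19 (log2 change 0.68) and Sox9 (log2 change 0.61) rose. Of 11 cholangiocyte markers 7 were tested, with 4 called higher and 2 lower, and their summed level was 1247 to 1398 CPM in the controls and 1209 to 1477 CPM with BBR. Spp1, given above as a matrix gene, is also on this marker list and was 1 of the 2 called lower. The ranges of the sum overlapped because its most abundant members moved in opposite directions. Group means went from 628 to 940 CPM for Cldn4 and from 617 to 347 CPM for Spp1, so the sum does not show that these markers were level. Cftr, a defining marker of bile duct cells, had no count in any of the 6 libraries. Acta2 (log2 change -0.97) was the only stellate cell or fibroblast marker called. In the cell cycle list 3 of 29 tested members were called higher and 12 lower, with a median log2 fold change of -0.35 (1 higher without control replicate 1), with Ccnd1, cyclin D1, at 8.09, 6.47 and 6.44 CPM in the controls and 4.01, 2.47 and 3.64 CPM with BBR (log2 change -1.02 ± 0.17 SE, adjusted p = 0.000268).

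Regulators of hepatocyte identity fell more often than they rose. Nuclear receptors were called lower in 15 of 35 tested members and higher in 0, with a median of -0.21. Nr0b2 led them, followed by Rxrg (log2 change -1.05), a retinoid X receptor, and by Esr1, the estrogen receptor alpha, at 6.83, 4.65 and 4.49 CPM in the controls and 2.66, 2.47 and 2.499 CPM with BBR (log2 change -1.05 ± 0.19 SE, adjusted p = 0.000597). None of the PPAR genes passed the test, with Ppara at 4.804, 4.89 and 5.68 CPM in the controls and 6.57, 4.75 and 4.78 CPM with BBR (log2 change 0.078 ± 0.15 SE, adjusted p = 0.752), Ppard at log2 change -0.15 and Pparg at log2 change -0.0082. Control and BBR libraries overlapped in all 3. Among hepatocyte transcription factors 8 of 42 tested members were called higher and 16 lower, with a median log2 fold change of -0.073. Hnf4a was at 151, 157 and 149 CPM in the controls and 135, 121 and 125 CPM with BBR (log2 change -0.26 ± 0.05 SE, adjusted p = 0.000928), and Onecut2 rose by 0.55 on the log2 scale while Onecut1 was at log2 change -0.67. No transcription factor of this list reached a 2-fold change. Clock genes were near the background, as 3 of 22 tested members were called higher and 2 lower, with a median log2 fold change of 0.074, with Hlf (log2 change -1.01), an output factor, lowest and Per1 (log2 change 0.61) highest. In growth hormone, insulin and IGF signaling 7 of 30 tested members were called higher and 12 lower, with a median log2 fold change of -0.031, with Irs1, the insulin receptor substrate, at 5.01, 5.27 and 5.596 CPM in the controls and 3.22, 2.47 and 2.28 CPM with BBR (log2 change -0.98 ± 0.17 SE, adjusted p = 0.000373) and Igfbp1 (log2 change 0.51) and Grb10 (log2 change 0.64) higher.

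The protein synthesis machinery moved little. Of 79 cytosolic ribosomal protein genes tested 0 were called higher and 1 lower (Rpl3, log2 change -0.14, a call that held only when control replicate 1 was the library left out, which gave 2 lower), with fitted changes from -0.14 to 0.10. Of 77 mitochondrial ribosomal protein genes 2 were called higher and 9 lower (0 higher without BBR replicate 2 or BBR replicate 3 or control replicate 2 and 1 higher without BBR replicate 1 or control replicate 1 and 4 higher without control replicate 3 and 0 higher in DESeq2, 5 lower without BBR replicate 3 or control replicate 3 and 4 lower in DESeq2), and Mrpl50 was among the latter (log2 change -0.25). Cytosolic aminoacyl-tRNA synthetases leaned downward, as 2 of 23 tested members were called higher and 8 lower, with a median log2 fold change of -0.029, with Vars (log2 change -0.36) lowest. The autophagy and lysosome list leaned upward, as 13 of 38 tested members were called higher and 2 lower, with a median log2 fold change of 0.095 (1 lower without control replicate 1). Neu1, the lysosomal sialidase, was at 54.6, 61 and 57.2 CPM in the controls and 73.4, 84.95 and 79.4 CPM with BBR (log2 change 0.46 ± 0.06 SE, adjusted p = 2.84e-05), while Tfeb, a master regulator of lysosomal genes, was lower (log2 change -0.46).

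The 24 leading genes were last followed in cells that received OA, in libraries that had no part in choosing them. There 1.95% of 12278 features were called higher with BBR and OA than with OA alone and 2.63% lower. Of the 12 rises 6 (8 without BBR+OA replicate 1) were called higher again, and of the 12 falls 3 were called lower, with 0 called in the opposite direction. With replicate number as a block 8 rises and 5 falls were called again. Acot1 was at 0.889 ± 0.312 CPM with OA and 14.1 ± 0.957 CPM with BBR and OA as mean ± SD with n = 3 (log2 change 3.99 ± 0.18 SE, adjusted p = 8.19e-09), and Ehhadh at 33.96 ± 1.31 CPM with OA and 273 ± 22.9 CPM with BBR and OA as mean ± SD with n = 3 (log2 change 3.003 ± 0.067 SE, adjusted p = 1.05e-12). Pdk4 (log2 change 1.39 ± 0.096 SE, adjusted p = 1.31e-06), Acaa1b (log2 change 0.84 ± 0.083 SE, adjusted p = 3.85e-05), Hilpda (log2 change 0.36 ± 0.048 SE, adjusted p = 0.000566) and Slc25a34 (log2 change 0.97 ± 0.17 SE, adjusted p = 0.00479) were the other 4 rises. Slc2a2 (log2 change -0.75 ± 0.16 SE, adjusted p = 0.0178), Rgs16 (log2 change -0.56 ± 0.15 SE, adjusted p = 0.0455) and Igfbp4 (log2 change -0.896 ± 0.046 SE, adjusted p = 4.24e-08) were the 3 falls, with 1 fall called without any single BBR+OA library and 2 without OA replicate 3. Sema7a (log2 change 0.13 ± 0.25 SE, adjusted p = 0.826) and Tenm4 (log2 change 0.0069 ± 0.40 SE, adjusted p = 0.996), by contrast, were not called with OA.

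Whether OA altered the effect of BBR was tested as an interaction over all 12 libraries, in which 12.2% of 12742 features were called. It was called for 18 of the 24 leading genes, 8 rises and 10 falls, each with a smaller absolute effect with OA. Without OA replicate 2 the calls of Tenm4 (adjusted p = 0.0743) and Serpinb9e (adjusted p = 0.0763) were lost. Slc25a34, Car14 and Lhx6, not called in the main fit, were called by the same test with replicate number as a block (adjusted p = 0.026, 0.026 and 0.036). Each of these was also called with some single library left out. Since the genes were chosen for a large effect without OA, that choice alone can make the effect elsewhere look smaller. How much of each difference it made was not tested. The log2 difference was -2.12 ± 0.13 SE for Pdk4 and -1.67 ± 0.43 SE for Serpinb9e. For Acot1 and Ehhadh the interaction was not past the threshold (Acot1 log2 difference 0.47, adjusted p = 0.488, and Ehhadh log2 difference -0.11, adjusted p = 0.615). Some leading genes started from another level with OA, a difference not tested here. Mean CPM in control, BBR, OA and BBR+OA cells was 49.1, 17.05, 19.7 and 14.5 for Gcgr. It was 24.8, 8.16, 8.80 and 7.54 for Akr1c14 and 34.2, 111, 64.2 and 82.9 for Hilpda. Igfbp4 (126, 44.8, 137 and 73.96) and Slc16a12 (7.35, 2.02, 9.77 and 8.19) did not start closer to their BBR level. The values with OA were scaled over all 12 libraries.

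**Figure D5:**
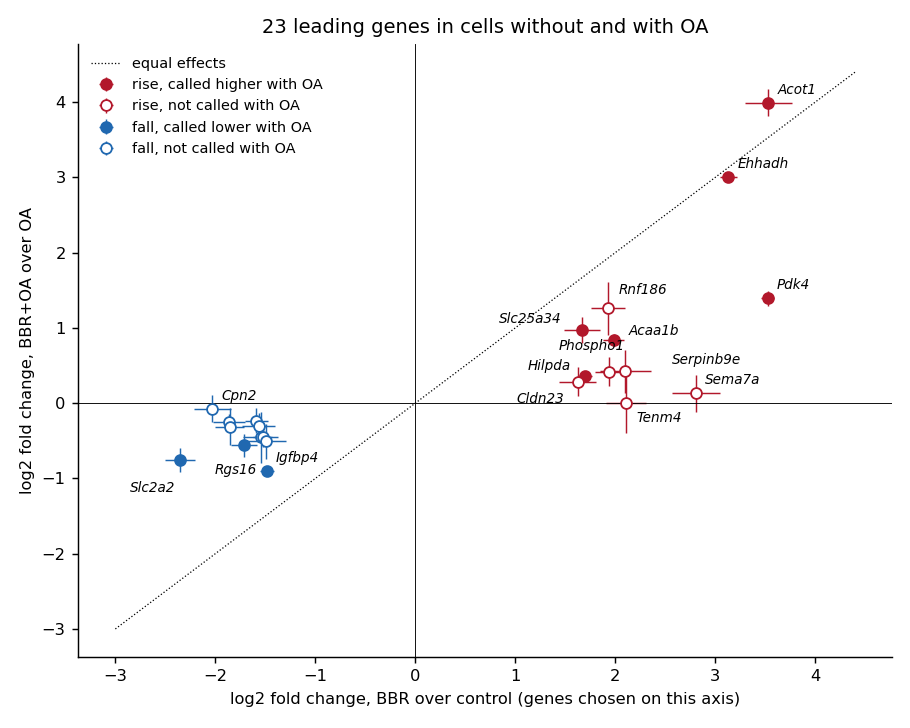
Each point is 1 of 23 leading genes, placed at its log2 fold change of BBR over control (horizontal, the axis it was chosen on) and of BBR+OA over OA (vertical), with 1 standard error on each side; red genes rose and blue genes fell without OA, and filled points were called again with OA. Acot1 and Ehhadh lie near the dotted line of equal effects, and the 11 falls shown lie between it and 0.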

How the data were processed

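RNA-seq libraries of 4 groups with 3 replicates each were grouped by their labels, and 6 of the 12 entered the comparison. The authors enriched poly(A) RNA, primed it at random and sequenced it on an Illumina instrument. The authors deposited 1 table per library with an estimated count per gene, not always whole, and an FPKM value per gene, which the authors scaled by length and depth. Per the submitters' processing notes the build was mm10. The aligner, the quantifier and the use of strand are not given in the sources used here, so overlapping and antisense genes cannot be told apart.

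Estimated counts were rounded to whole numbers and tested with edgeR 4.0.16 in R 4.3.3 (filterByExpr with a minimum count of 10, TMM scaling, quasi-likelihood F test, two-sided, Benjamini-Hochberg adjustment over all features tested, threshold 0.05). The script was tested on simulated data. CPM values are TMM-scaled. Alternatives were RLE and upper quartile scaling, no filter, DESeq2 1.42.0, all 12 libraries in 1 fit, limma 3.58.1 on log2(FPKM + 1), a replicate block and leaving out each library. The alternatives for BBR+OA against OA were chosen after seeing the data.

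Genes were named by rule. These were the 12 largest rises and falls that were called, did not overlap and reached 5 CPM in the higher group, the 5 largest of each from 0.5 to 5 CPM, the 6 largest of each at a mean of at least 500 CPM, up to 2 rises and 2 falls per list, nuclear receptors and hepatocyte transcription factors changed at least 2-fold, and the PPARs. The sets by abundance also held only called genes without overlap between groups. The comparison, the members and the gene lists were chosen with earlier results of these data known. Some genes that the rule named are not reported here. Promoters and gene coordinates are from GRCm38 annotation.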

Additional observations from a re-analysis of the deposited data

Results flagged for a closer look

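The BBR effect differed with OA and without it in 17 of the 23 leading genes described, by edgeR's test of the interaction over all 12 libraries. Values are the log2 effect with OA minus the log2 effect without OA. Among genes that rose without OA the difference was called for Pdk4 (-2.12), Sema7a (-2.67), Tenm4 (-2.09), Serpinb9e (-1.67), Acaa1b (-1.13), Phospho1 (-1.51), Hilpda (-1.33) and Cldn23 (-1.32). Among genes that fell without OA it was called for Slc2a2 (1.61), Cpn2 (1.97), Slc16a12 (1.62), Slc17a4 (1.55), Rgs16 (1.16), Akr1c14 (1.36), Rtp3 (1.28), Gcgr (1.08) and Igfbp4 (0.60). Without OA replicate 2 the calls of Tenm4 (adjusted p = 0.0743) and Serpinb9e (adjusted p = 0.0763) were lost. With replicate number as a block the same test also called Slc25a34 (adjusted p = 0.026), Car14 (adjusted p = 0.026) and Lhx6 (adjusted p = 0.036). Each of the 17 had the smaller absolute effect with OA. Some, among them Gcgr, Akr1c14 and Hilpda, started from another level with OA, as given above. Igfbp4 and Slc16a12 did not start closer to their BBR level. The genes were chosen for a large effect without OA, and that choice alone can make the effect elsewhere look smaller. How much of each difference it made was not tested.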

How the results depend on the processing

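The 3484 calls of BBR against control became 3492 with RLE scaling, 3461 with upper quartile scaling, 3589 without a filter, 2746 in DESeq2, 3462 with all 12 libraries in 1 fit, 2610 in limma on FPKM, and 2598 to 3240 when any 1 library was left out. Asking also for a 2-fold change left 276, and 297 with an unadjusted p. The interaction gave 1551 calls, 1408 to 1664 under other scalings, filters and DESeq2, and 1027 (without OA replicate 2) to 1679 (without OA replicate 3) with 1 library left out, with 1028 without BBR replicate 2. BBR+OA against OA gave 563 calls, 566 with RLE scaling, and 216 (without BBR+OA replicate 3) to 632 (without OA replicate 3) with 1 library left out, with 249 when OA replicate 2 was dropped and 373 or 230 when BBR+OA replicate 1 or 2 was. Of 2665 values of 205 named genes over the alternatives, 2529 kept direction and side of the threshold, and the others kept only the direction. No scaling moved the median of all features by more than 0.1 on the log2 scale.

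With replicate number as a block the 3 counts were 4153, 2265 and 1333. Deviations of same-numbered control and BBR libraries correlated at 0.136, 0.0683 and 0.106, which is weak and not all above 0.1. Each library nevertheless correlated best with its own number, so pairing by number is not excluded. The labels do not state a pairing, and the main results leave the libraries unpaired.

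At 3 libraries a group, changes in genes under 1 CPM had a median standard error of 0.37 on the log2 scale, so small changes there were not detectable.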
